A study of Mus musculus with 6 samples.

Results

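RNA immunoprecipitation followed by sequencing (RIP-seq) compared the RNA that an antibody against IGF2BP1 brought down from cultured mouse germ stem cells with the RNA of the same kind of cells before any pull-down, the input. The comparison rests on 4 of the 6 libraries of the series, 2 of IGF2BP1 RIP and 2 of input, and covers every one of the 22564 protein-coding genes in the deposited table. Of these, 11338 had enough fragments to be tested. The libraries were taken by their labels. The other 2 libraries of the series were pulled down with a non-specific IgG, and their values are given only for some genes, some lists and the classes by length. Where they are not given, IgG RIP may have stood as high as IGF2BP1 RIP or higher, as it did for Rara and Flna.

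All groups came from cultured mouse germ stem cells grown in a stem cell medium with GDNF and FGF2 at 10 ng/ml each, and the labels name no strain, genotype, age or further treatment. The libraries were read as 150 bp paired ends. Whether replicates are separate cultures or separate pull-downs is not stated, so p-values measure the spread between these libraries, which may be technical. In the test on the 4 libraries, a gene's own libraries gave 2 degrees of freedom and a spread pooled over genes 20.8. Each p-value and SE therefore rests mostly on the pooled spread and not on the gene's own replicates alone. The labels state no sort or gate on the cells, nor any depletion of ribosomal RNA or selection of polyadenylated RNA.

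IGF2BP1 belongs to a family of RNA-binding proteins that attach to mRNAs through RRM and KH domains. The family is known for shielding bound mRNAs from decay, for carrying them to places in the cell, and for reading the m6A modification. Classic targets, known mostly from human and chicken cells, include the mRNAs of beta-actin, MYC, CD44, IGF2 and LIN28B. A RIP library reports the share that each mRNA takes of the pulled-down RNA. A higher share than in input says that the mRNA was over-represented in the pull-down relative to other mRNAs, and the total amount of RNA brought down was not compared.

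The pull-down held smaller shares of short ribosomal protein mRNAs, of nuclear-encoded respiratory-chain mRNAs and of replication-dependent histones, than input did. The start of a transcript is one feature by which ribosomal protein mRNAs are recognised: they commonly begin with a C followed by a run of pyrimidines, known as the 5′ terminal oligopyrimidine motif. Start windows are shown as examples. First is a pair of ribosomal genes that were lower in the pull-down and hold such a run within the window. Then come genes that were lower and hold none, and last a gene that was higher and holds none. Other named genes went the other way: ribosomal Rps27l (-2.83) held no run, and Tcf20, which was higher (0.83), held one. Over all genes with a window the run was present in 15.5% of those called higher and 17.5% of those called lower, a difference that was not tested. Each window runs from 5 bases before to 20 bases from the annotated start (25 bases, RefSeq, GRCm38.p6). Capitals mark a C followed by at least 5 pyrimidines, on the strand of the gene. The run may lie anywhere in the window, and in Rps12 it lies after the annotated start and not at it. Rps12 (small ribosomal subunit protein) is at chr10:23787190-23787214 on the minus strand and Rps15a (small ribosomal subunit protein) at chr7:118116128-118116152 on the minus strand. Tmsb4x (thymosin beta 4, which binds actin monomers) is at chrX:167209199-167209223 on the minus strand, Wfdc17 (a WAP domain gene) at chr11:83704051-83704075 on the plus strand and Lars2 (the mitochondrial leucyl-tRNA synthetase) at chr9:123366922-123366946 on the plus strand. Med15 (a Mediator subunit) is at chr16:17722928-17722952 on the minus strand.
Rps12: cggccaccgccggCCTTTTCCCCTg
Rps15a: gccatCTTCCCTCgccggtgagtga
Tmsb4x: gtgacatcacctcatttgcatagaa
Wfdc17: gctataaattatttcatgagttcag
Lars2: ctttcgataaagttgttgttttgcc
Med15: cctgtacttccggcgtggcccagta

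The IGF2BP1 libraries held 2793425 and 2836942 fragments on protein-coding genes and the input libraries 1639251 and 1693165. Between 14989 and 15089 genes were detected in each of these libraries. Replicates of both groups lay close together, with a biological coefficient of variation of 7.73% in IGF2BP1 RIP and 6.74% in input. The IgG libraries held 2558673 and 2723451 fragments and differed from each other far more, with a coefficient of 46.4%, so they were left out of the fit. Levels are given in CPM, fragments scaled to the library's TMM-adjusted total, for replicates 1 and 2 in that order. Gene lengths differ, so levels of named genes are compared between libraries and not between genes. Of the genes named, Edc4, Fdft1, Glis3, Hmga1, Hspe1, Igf2bp3, Mrpl33, Ptbp1, Snrpf, Srf, Taf6, Tcf7, mt-Cytb, mt-Nd5 and mt-Nd6 are listed with the locus span of another gene, so their counts are uncertain.

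Between IGF2BP1 RIP and input, 1925 of the 11338 genes tested were higher in the pull-down (17.0%) and 2169 were lower (19.1%), 36.1% together, in edgeR's quasi-likelihood test on the 4 libraries, with a Benjamini-Hochberg adjusted p under 0.05 over all genes tested. The other 7244 genes were not called. Calls went with level. The median level was 94.0 CPM over genes called higher, 64.7 CPM over those called lower and 24.7 CPM over those not called. A list of genes with many fragments can therefore exceed the shares over all genes in both directions, and a list with few can fall below both. Of the called genes, 837 were at least 1.5-fold higher (7.38% of genes tested) and 1413 at least 1.5-fold lower (12.5%), 19.8% together. Whatever the test, both pull-down libraries lay above both input libraries for 34.0% of genes tested and below them for 34.2%. The lower side reached further from 0: the median log2 fold change was 0.54 over the genes called higher and -0.74 over those called lower, against 0.001 over all genes tested. Leaving out an input library moved these counts by over 1.5 times. Without input replicate 1 the counts were 987 higher and 1151 lower, and without input replicate 2 they were 905 and 1102. With either IGF2BP1 library left out they lay between 1676 and 1874 higher and between 1818 and 1966 lower. DESeq2 called 858 and 1118, and a model of all 6 libraries, which takes in the wider spread of IgG RIP, called 266 and 453. Of the 129 genes named by rule, 36 lost their call in that model. On the FPKM values as deposited, the median of all genes lay 0.81 above 0 on the log2 scale, so calls there count that shift as a change, and fold changes are given relative to the bulk of genes.

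**Figure D1:**
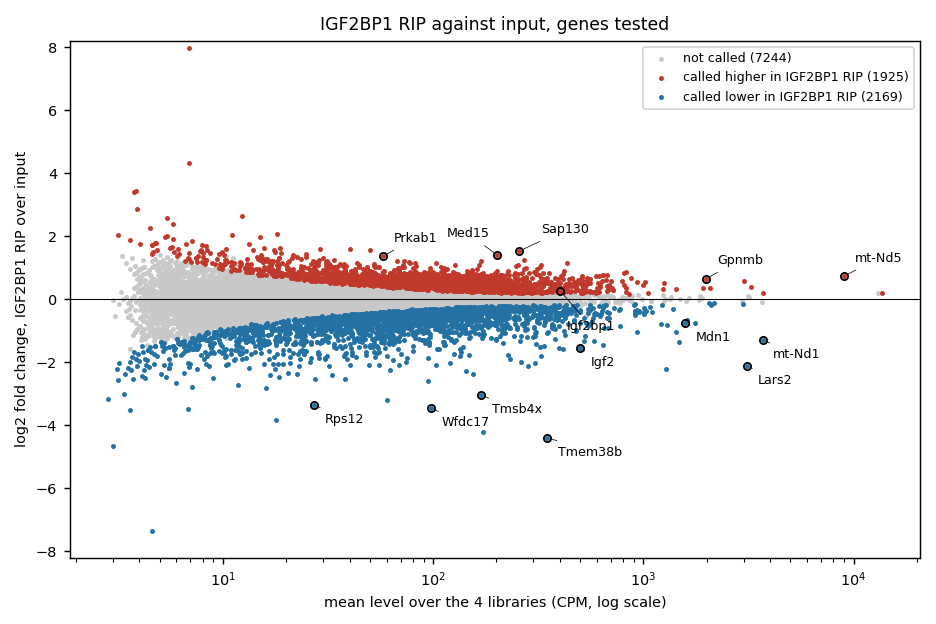
Mean level over the 2 IGF2BP1 RIP and 2 input libraries (CPM, log scale) against the log2 fold change of IGF2BP1 RIP over input, 1 point per gene tested, with called genes in colour and named genes circled. Blue points reach further from 0 than red ones among genes above 20 CPM, and abundant genes such as Lars2 and mt-Nd1 are among the lower ones.

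Tmem38b, which encodes an ion channel of the endoplasmic reticulum (ENSMUSG00000028420, GRCm38 chr4:53826045-53862019), stood furthest below input among the genes open to naming, whose groups do not overlap by the rule that chose them. In the IGF2BP1 libraries it reached 32.0 and 31.4 CPM, whereas input held it at 688 and 646 CPM. This is a log2 fold change of -4.39 ± 0.09 (SE), adjusted p = 1.65e-20. In IgG RIP it stood at 119 and 181 CPM, between the other groups, and IGF2BP1 RIP was lower than IgG RIP as well (log2 fold change -2.22, adjusted p = 0.00220). Tmem38b was of about average length, with a length index of 1.12, where 1 is the median gene. After adjustment for length its fold change was -4.46.

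Most of the other genes furthest below input were short. Over the 12 with the largest negative fold changes the median length index was 0.22, where the index is the deposited count over FPKM relative to the median gene. Tmsb4x (ENSMUSG00000049775, GRCm38 chrX:167207093-167209315), whose start window was shown above, stood at 37.0 and 36.0 CPM in the pull-down and 299 and 305 CPM in input. The groups lay far apart, with a log2 fold change of -3.05 ± 0.10 (SE) and adjusted p = 1.53e-16. Wfdc17, a gene with a WAP four-disulfide core domain (ENSMUSG00000069792, GRCm38 chr11:83703991-83706268), stood at 13.2 and 19.1 CPM against 179.9 and 178 CPM (-3.47 ± 0.15 (SE), adjusted p = 2.59e-14). Rps12 (ENSMUSG00000061983, GRCm38 chr10:23785211-23787195) stood at 6.05 and 3.53 CPM against 56.7 and 42.3 CPM (-3.35 ± 0.29 (SE), adjusted p = 5.54e-09).

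Another ribosomal mRNA, Rps15a, stood at 55.2 and 44.5 CPM in the pull-down and 263 and 254 CPM in input (-2.37 ± 0.11 (SE), adjusted p = 4.15e-14). Complex I genes were in this group too, whose members are all lower by the rule that chose them. Ndufc1 was at 8.54 and 7.42 CPM against 49.2 and 44.0 CPM (-2.54) and Ndufa3 at 6.76 and 6.71 CPM against 37.4 and 31.0 CPM (-2.33). Sec61g, a subunit of the translocon through which proteins enter the endoplasmic reticulum, was at 3.20 and 11.3 CPM against 39.2 and 36.3 CPM (-2.37). Ggh, which trims folates, was at 9.26 and 11.7 CPM against 54.2 and 57.1 CPM (-2.41), and it was not short, with a length index of 0.753. The last 3 of the 12 are less well known genes: Gm10800 (-3.19), 4930546H06Rik (-2.53) and Gm10076 (-2.28). The adjusted p of all 12 ran from 1.65e-20 to 6.96e-06, and all 12 were also called lower after adjustment for length.

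On the higher side the changes were smaller. Sap130, a subunit of a Sin3A histone deacetylase complex (ENSMUSG00000024260, GRCm38 chr18:31634371-31723061), stood at 386 and 374 CPM in the pull-down and 136 and 129 CPM in input. The pull-down libraries were close to each other and well above both input libraries (1.52 ± 0.08 (SE), adjusted p = 7.15e-13). Med15, a subunit of the Mediator complex that links transcription factors to RNA polymerase II (ENSMUSG00000012114, GRCm38 chr16:17651221-17722930), stood at 295 and 289 CPM against 111 and 109.5 CPM (1.41 ± 0.08 (SE), adjusted p = 6.24e-12). Prkab1, which encodes part of the energy-sensing kinase AMPK (ENSMUSG00000029513, GRCm38 chr5:116009316-116024508), stood at 85.8 and 79.9 CPM against 29.3 and 35.1 CPM (1.36 ± 0.16 (SE), adjusted p = 5.29e-07). In IgG RIP these 3 genes stood at 228 and 181 CPM, 197 and 138 CPM and 31.5 and 17.8 CPM, and IGF2BP1 RIP was higher than IgG RIP for each, with log2 fold changes of 0.91, 0.82 and 1.77, adjusted p = 0.00970, 0.0308 and 0.0181.

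AI607873 stood at 69.1 and 79.5 CPM in the pull-down and 26.8 and 23.8 CPM in input (1.55), but its IgG libraries stood at 72.7 and 65.5 CPM, close to the pull-down. The predicted gene Gm4076 was at 40.6 and 32.2 CPM against 13.7 and 13.1 CPM (1.44). Fig4, a phosphoinositide phosphatase, was at 30.3 and 32.2 CPM against 8.72 and 14.9 CPM (1.39). In the model of all 6 libraries Gm4076 (adjusted p = 0.0561), Fig4 (0.104) and Zfp362 (0.0689) were not called, and Fig4 was not called on centred FPKM either. Mospd3 (1.32) and the zinc finger gene Zfp362 (1.31) were also among the 12, and for both at least 1 IgG library lay as high as an IGF2BP1 library.

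Of the 12, 4 lost their call with 1 library left out. Fam160b1 was at 58.7 and 63.3 CPM in the pull-down, and at 0 and 39.3 CPM in input, so that 1 input library set its fold change of 1.61. Without input replicate 1 it was 0.64 (adjusted p = 0.0599). Inpp5b, an inositol polyphosphate phosphatase, was at 27.1 and 38.2 CPM against 1.25 and 23.8 CPM (1.35), and without input replicate 1 at 0.46 (adjusted p = 0.338). Zfp251 was at 46.3 and 24.7 CPM against 18.7 and 9.52 CPM (1.34), and without input replicate 2 at 0.93 (adjusted p = 0.193). Arhgap1 was at 24.2 and 56.5 CPM against 21.2 and 13.1 CPM (1.24). It lost its call without IGF2BP1 replicate 2 (0.51, adjusted p = 0.208), without input replicate 1 (1.63, adjusted p = 0.0956) and without input replicate 2 (0.94, adjusted p = 0.274).

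**Figure D2:**
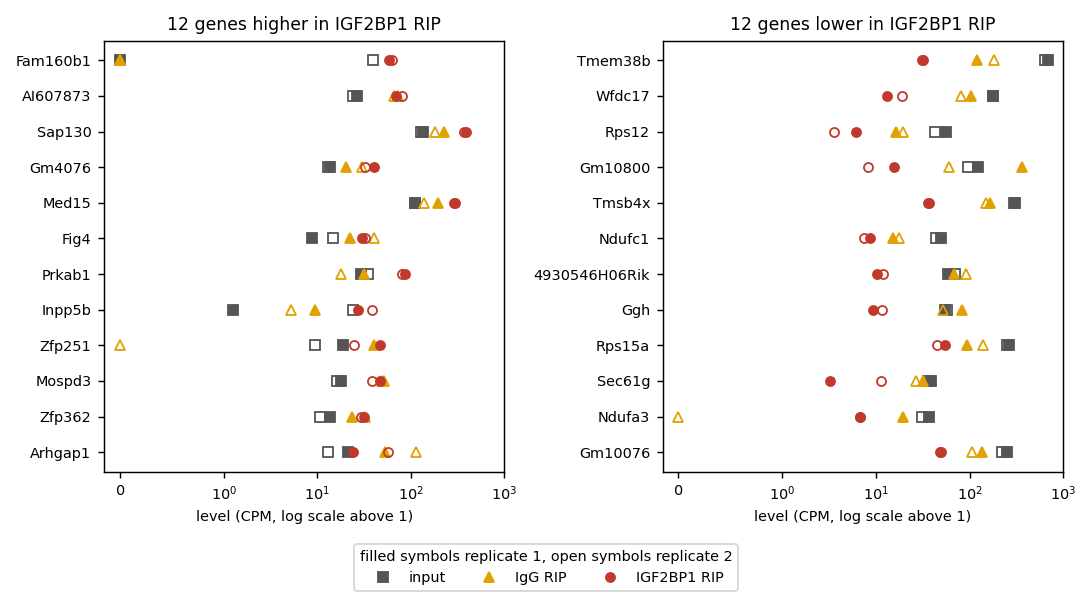
Level (CPM, log scale above 1) in each of the 6 libraries for the 12 genes furthest above input and the 12 furthest below it in IGF2BP1 RIP, with filled symbols for replicate 1 and open symbols for replicate 2. The genes were chosen among those whose IGF2BP1 RIP and input points do not overlap, and in the left panel input replicate 1 of Fam160b1 is at 0 while input replicate 2 is at 39.3 CPM.

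Of the 12 genes furthest above input, 3 were also called higher than IgG RIP (396 of 12053 genes tested there, 3.29%), and of the 12 furthest below input, 9 were also called lower than IgG RIP (456 genes, 3.78%, or 7.07% in either direction). Between IgG RIP and input, 505 genes were higher with IgG (4.19%) and 591 lower (4.90%), 9.09% together. Of the 12 genes furthest above input, 4 were also called higher with IgG than in input. Of the 12 furthest below it, 7 were also called lower with IgG than in input. These comparisons share libraries, so the shared calls are no independent check. One gene was at 0 fragments in both input libraries with at least 30 in each IGF2BP1 library, and it was picked out after its values were seen. It is Ncoa1, a coactivator of nuclear receptors, with 38 and 40 fragments in the pull-down and 0 and 11 with IgG. Against a floor of 3 fragments per input library (1.80 CPM) its mean of 13.9 CPM was at least 7.69-fold higher. No gene was at 0 in both IGF2BP1 libraries with at least 30 fragments in each input library. The input libraries held fewer fragments, so 30 fragments is a higher level there and the rule is stricter in that direction. At a lower level Tmem147 showed the opposite pattern, at 0 in both IGF2BP1 libraries and 10.6 and 7.74 CPM in input (edgeR adjusted p = 1.56e-05). It was at 0 in both IgG libraries too.

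Genes named for a high level were chosen among those at least 1.5-fold apart. Lars2 (ENSMUSG00000035202, GRCm38 chr9:123366940-123462664), whose start window was shown above, stood at 1217 and 1120 CPM in the pull-down and 5166 and 4938 CPM in input (-2.11 ± 0.04 (SE), adjusted p = 1.68e-20). Its IgG libraries stood at 1275 and 1871 CPM, near the level of IGF2BP1 RIP, and the difference from IgG RIP was not called (-0.41, adjusted p = 0.158). The chemokine gene Ccl6 fell from 2129 and 2111 CPM to 788 and 866 CPM (-1.36 ± 0.05 (SE)). Ftl1, the ferritin light chain, which stores iron, was at 963 and 908 CPM against 1969 and 1858 CPM (-1.03 ± 0.05 (SE)), and both groups were tight. Ncl, the nucleolar protein nucleolin, was at 1288 and 1331 CPM against 2248 and 2141 CPM (-0.74). Mdn1, a very long mRNA for a ribosome assembly ATPase with a length index of 7.30, was at 1149 and 1197 CPM against 1982 and 1973 CPM (-0.75), and higher still in IgG RIP, at 3025 and 3648 CPM.

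Among abundant genes on the higher side, Gpnmb, a transmembrane glycoprotein known from macrophages and melanocytes, stood at 2494 and 2368 CPM against 1536 and 1554 CPM (0.65 ± 0.05 (SE), adjusted p = 1.79e-10). Brd2, a bromodomain reader of acetylated histones, stood at 843 and 846 CPM against 473 and 529 CPM (0.75 ± 0.07 (SE)). Tcf20, a transcriptional coregulator, stood at 1031 and 1039 CPM against 596 and 568 CPM (0.83). Prrc2a, an RNA-binding protein, was at 1114 and 1028 CPM against 663 and 673 CPM (0.68), and the glycolytic enzyme gene Pkm at 819.5 and 789.8 CPM against 547 and 506 CPM (0.61). IgG RIP held Tcf20 at 943 and 1148 CPM, on either side of the pull-down, and Prrc2a at 1170 and 1449 CPM, above it. For Gpnmb and Brd2 IgG RIP was lower than IGF2BP1 RIP (differences of 0.48 and 0.57, adjusted p = 0.00523 and 0.0247).

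Transcript length set apart the shortest mRNAs. Genes were divided into 10 classes by length index. In the shortest class, with an index up to 0.377, 504 of 1138 genes were called lower (44.3%) and 32 higher (2.81%), against 19.1% and 17.0% over all genes tested, and the median log2 fold change was -0.51. In the next class it was -0.07, with 220 of 1131 lower and 97 higher. From the fourth class to the ninth the medians lay between 0.06 and 0.10. In the longest class the median was 0.01, with 249 genes higher and 247 lower. The step therefore lay at the short end, and the pull-down showed no steady rise with length. These values are a description across genes, which are not replicates.

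IgG RIP differed from input along length in another way. Its medians over the 10 classes rose from -0.41 in the shortest to 0.24 in the longest. Both comparisons share the input libraries. Against IgG RIP the IGF2BP1 medians were -0.11 in the shortest class, between -0.06 and 0.14 in the 8 classes between, and -0.23 in the longest. The part of length and that of the antibody in the loss of short mRNAs was not tested.

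**Figure D3:**
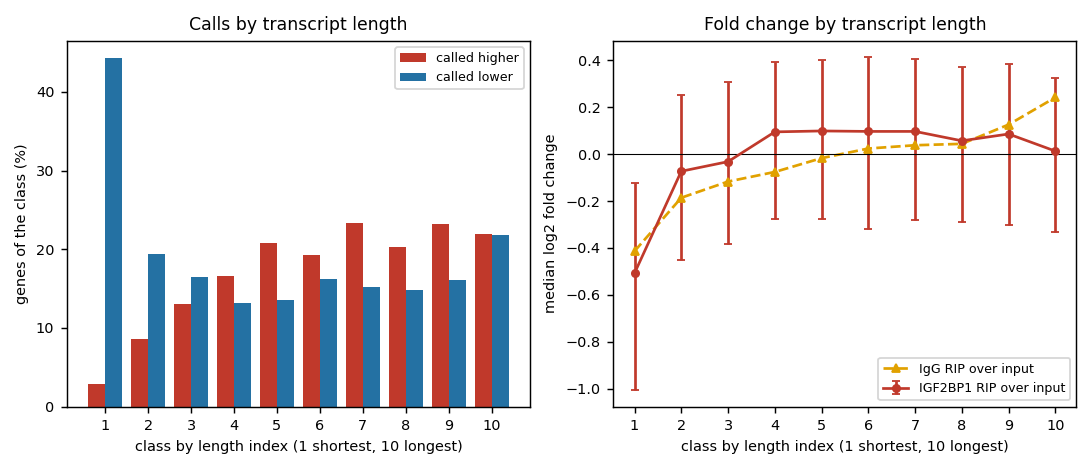
Left, the percent of genes called higher and lower in IGF2BP1 RIP against input in each of 10 classes by length index. Right, the median log2 fold change per class for IGF2BP1 RIP over input (circles, bars from the lower to the upper quartile) and for IgG RIP over input (triangles), where the shortest class stands at -0.51 and -0.41.

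The short class was not made up of ribosomal, respiratory and histone genes alone. It held 230 genes of the lists of cytosolic and mitochondrial ribosomal proteins, oxidative phosphorylation, histones and the mitochondrial genome, of which 173 were called lower and 1 higher (median -0.93). The other 908 genes of the class had 331 lower and 31 higher calls and a median of -0.39. The listed genes were also shorter, with a median index of 0.186 against 0.290. An alternative chosen after the data were seen gave each of 20 length classes its own offset in each library. It called 1801 genes higher (15.9%) and 2025 lower (17.9%) of 11333, 33.8% together, so the number of calls moved little, while the medians of lists of short genes moved toward 0.

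Cytosolic ribosomal proteins, the structural parts of the ribosome, were the group most often called lower. Of 86 tested, 76 were lower (88.4%) and 0 higher, with a median log2 fold change of -0.96. The count of higher members was also 0 at an unadjusted p under 0.05 in edgeR, and with DESeq2 and limma-voom. Summed over the list, they took 16880 and 16380 CPM of the IGF2BP1 libraries, 21910 and 20340 with IgG, and 30260 and 29630 of input. The pull-down sums were the lowest of the 3 groups and did not overlap the others. Besides Rps12 and Rps15a, Rplp1, a stalk protein of the large subunit, was at 110.0 and 101 CPM against 474 and 451 CPM (-2.13). Rps27l, a p53-regulated paralog of Rps27, was at 2.85 and 4.95 CPM against 27.4 and 28.6 CPM (-2.83). With 1 library left out, between 69 and 78 were lower and up to 2 higher. After adjustment for length 48 were lower and 6 higher, with a median of -0.44. Of the 86, 22 share a locus span with another gene, and ribosomal pseudogenes can draw fragments, so single members are uncertain.

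Start windows were found in RefSeq for 65 of the 86, and 30 of them (46.2%) held a C followed by at least 5 pyrimidines on the gene's strand. Over all 27025 RefSeq promoters the share was 17.0%, and over the 8865 tested genes with a window it was 16.5%. Ribosomal genes with the run had a median log2 fold change of -1.18 and those without it -0.83. Those with the run were also shorter, with a median length index of 0.18 against 0.25, so run and length cannot be told apart here. Of the genes not called, 16.5% held it. Among genes of the shortest length class it was present in 22.1% of those called lower and 17.4% of those not called. These shares include the ribosomal genes, and a match of letters is no binding site.

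Replication-dependent histones, whose mRNAs end in a stem-loop and not in a poly(A) tail, followed. Of 65 tested, 54 were lower (83.1%) and 0 higher in edgeR, DESeq2 and limma-voom and at an unadjusted p under 0.05, with a median of -1.02. Hist1h2bq was at 38.8 and 43.1 CPM in the pull-down, 164 and 133 CPM in input and 265 and 314 CPM with IgG. Hist1h4n was at 30.3 and 23.3 CPM, 101 and 104 CPM and 152 and 135 CPM in the same order. Unlike the ribosomal mRNAs, both stood highest in IgG RIP. Over the list the median of IgG RIP over input was 0.06. Against IgG RIP 30 of the 65 were lower in IGF2BP1 RIP, where 3.78% of all genes tested were lower. With 1 library left out, between 38 (without input replicate 1) and 55 were lower and up to 1 higher. After adjustment for length 26 were lower and 4 higher (median -0.32). Histone genes are near-identical copies, 21 of the 65 share a locus span, and counts of a single copy are uncertain.

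Nuclear genes of oxidative phosphorylation, the respiratory complexes and ATP synthase, had 54 of 79 lower (68.35%) and 8 higher (10.1%, against 17.0% over all genes), with a median of -0.80. The ATP synthase subunit gene Atp5e was at 14.2 and 10.2 CPM against 44.2 and 45.2 CPM (-1.86), and in IgG RIP at 14.9 and 11.7 CPM, level with the pull-down. Ndufv1, a longer complex I gene with a length index of 0.609, was on the higher side, at 179.8 and 164 CPM against 128 and 113 CPM (0.51). After adjustment for length 27 were lower and 11 higher, and the median was -0.17. IgG RIP had a median of -0.61 over input in this list, and IGF2BP1 RIP a median of -0.08 over IgG RIP, where 6 were lower and 5 higher. The shares over all genes tested against IgG RIP were 3.78% and 3.29%. Without input replicate 2 the count fell to 38 lower and 1 higher. Mitochondrial ribosomal proteins, which build the separate ribosome of the organelle, had 20 of 76 lower (26.3%, against 19.1% over all genes) and 0 higher in edgeR (median -0.33), with 1 higher at an unadjusted p under 0.05 and 0 with DESeq2 and limma-voom. Mrpl33, of the large subunit, had a log2 fold change of -1.72 ± 0.31 (SE). Without input replicate 1, 8 of the 76 were lower, and up to 2 were higher with 1 library left out. After adjustment for length 9 were lower and 6 higher (median -0.12).

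The 11 tested mRNAs of the mitochondrial genome did not move one way. The complex I gene mt-Nd1 was lower, at 2002 and 2267 CPM in IGF2BP1 RIP against 5218 and 5265 CPM in input (-1.30 ± 0.04 (SE), adjusted p = 4.23e-16). Its neighbour in the same complex, mt-Nd2, was higher, at 3494 and 3716 CPM against 2438 and 2381 CPM (0.58 ± 0.04 (SE), adjusted p = 1.54e-10). In both cases the libraries of a group lay close together. IgG RIP held mt-Nd1 at 2004 and 2252 CPM and mt-Nd2 at 1857 and 1681 CPM, so mt-Nd1 lay in the same range in both pull-downs (0.02, adjusted p = 0.889) and mt-Nd2 was higher with IGF2BP1 (1.05, adjusted p = 5.18e-04). Mt-Nd5 was higher, at 10988 and 11498 CPM against 6802 and 6747 CPM (0.73).

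Mt-Cytb, a complex III subunit, was at 13836 and 15376 CPM against 12865 and 12389 CPM (0.21, adjusted p = 1.33e-05), and without input replicate 2 its fold change was 0.19 (adjusted p = 0.0553). Mt-Nd6 was at 10.3 and 24.4 CPM against 325 and 327 CPM (-4.23), the largest difference of the list. Of the 11 genes, 8 carry the locus span of another gene. Some of these genes swung between replicates of one group: mt-Co3 stood at 1336 ± 1523 CPM in the pull-down, and input held 1328 ± 1350 (SD, n = 2). The median over the 11 was 0.09, with 3 higher (27.3%, against 17.0% over all genes) and 2 lower (18.2%, against 19.1%). With 1 library left out the counts ran from 2 to 8 and from 2 to 7, and the median was -1.38 without IGF2BP1 replicate 2 and 0.57 without input replicate 2.

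Giant mRNAs, for cytoskeletal and other very long proteins, stood at the other end of length. Of 29 tested, 14 were lower than input (48.3%, against 19.1% over all genes) and 1 higher (3.45%, against 17.0%), with a median of -0.27. After adjustment for length 13 were lower and 1 higher. The sums of the list were 14640 and 14940 CPM in IGF2BP1 RIP, 17100 and 17030 in input, and 29080 and 29150 in IgG RIP. The IgG libraries were thus far above both other groups. Dst, a cytoskeletal linker, was at 338 and 386 CPM in the pull-down, 548 and 589 CPM in input and 1200 and 993 CPM with IgG. Ttn, which encodes titin, was at 48.4 and 55.8 CPM, 162 and 150.0 CPM and 276 and 311 CPM in that order. Herc2, a giant ubiquitin ligase, was at 196 and 237 CPM against 326 and 343 CPM (-0.62). Sptan1, alpha-spectrin, was the member called higher, at 1472 and 1470 CPM against 1043 and 1034 CPM (0.50). Against IgG RIP 22 of the 29 were lower, where 3.78% of all genes tested were lower.

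**Figure D4:**
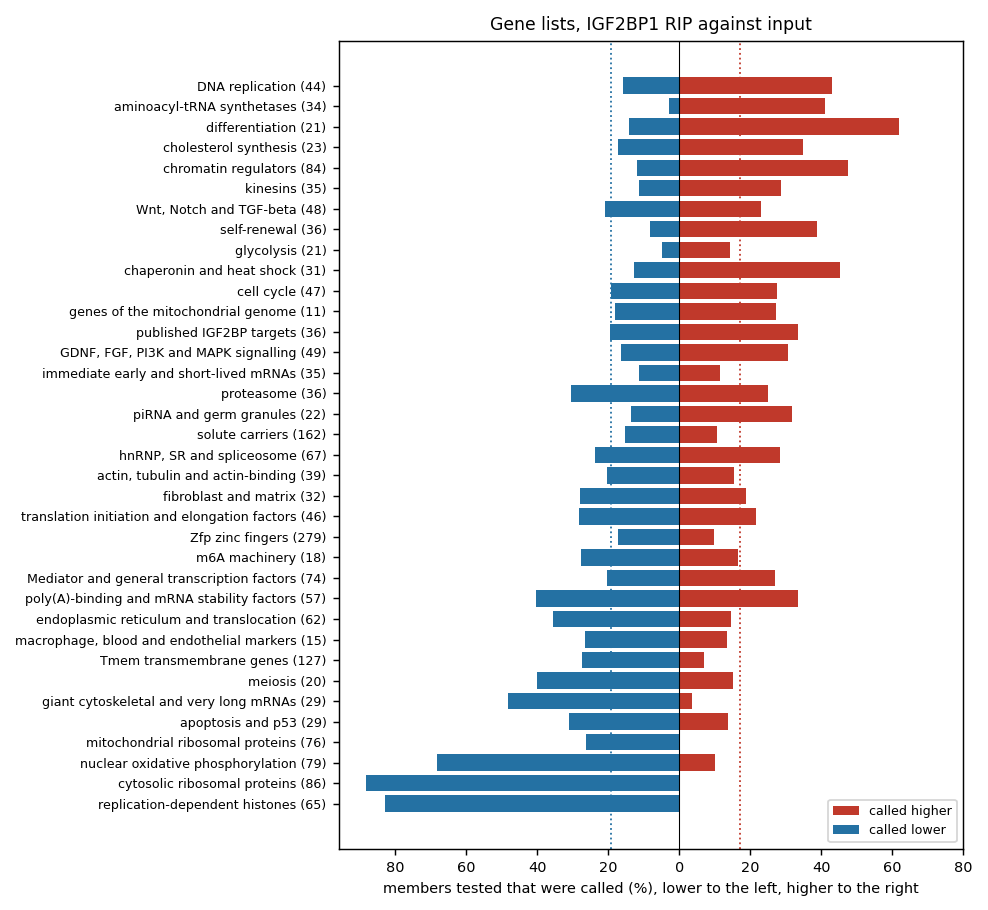
Percent of tested members called higher (right) and lower (left) in IGF2BP1 RIP against input for each list with at least 10 tested members, ordered by median fold change, with the number tested in brackets. Dotted lines mark the shares over all genes tested (17.0% higher, 19.1% lower), and the 2 lowest lists by median have 83.1% and 88.4% of members lower.

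Chromatin regulators, which write, read and remodel histones, led the lists on the higher side by number. Of 84 tested, 40 were higher (47.6%, against 17.0% over all genes) and 10 lower (11.9%, against 19.1%), with a median of 0.27. Sap130 and Brd2 belong to this list. Arid2, a subunit of a SWI/SNF remodeller, was at 298 and 293 CPM in IGF2BP1 RIP against 164 and 152 CPM in input (0.90 ± 0.08 (SE), adjusted p = 6.84e-09). Suz12, a core subunit of the Polycomb repressive complex that methylates histone H3, went the other way, at 173 and 192 CPM against 275 and 266 CPM (-0.57). In IgG RIP the list's median over input was 0.31, and over IgG RIP the IGF2BP1 median was -0.04, with 4 higher and 9 lower. Of all genes tested against IgG RIP, 3.29% were higher and 3.78% lower. The counts were 27 and 2 without input replicate 2.

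DNA replication genes had 19 of 44 higher (43.2%, against 17.0% over all genes) and 7 lower (15.9%, against 19.1%). Their median of 0.37 was the highest of any list with at least 10 tested members. The helicase subunit gene Mcm5 was at 257 and 248 CPM against 158 and 153 CPM (0.70) and the polymerase gene Pold1 at 121 and 119 CPM against 74.1 and 78.6 CPM (0.65). Both were chosen as called members of the list. Every pull-down library was above every input library for Mcm5 and Pold1, as for 34.0% of genes tested. Over IgG RIP the list's median was 0.29, with 2 of 44 higher and 1 lower, near the shares over all genes tested there (3.29% and 3.78%). The higher count fell to 10 without input replicate 2 and the lower count to 1 without input replicate 1. Cell cycle genes were split, with 13 of 47 higher (27.7%) and 9 lower (19.15%), and a median of 0.10. The checkpoint kinases Bub1b, at 246 and 255 CPM against 150.0 and 158 CPM (0.70), and Ttk (0.69) were higher, while the kinetochore protein gene Cenpf was lower, at 853 and 919 CPM against 1514 and 1548 CPM (-0.79). The cell cycle counts were 6 and 4 without input replicate 1. Kinesins, motors on microtubules, had 10 of 35 higher (28.6%) and 4 lower (11.4%), with a median of 0.26. Kif22 was at 0.80 and Kif5b at -0.86, and 6 kinesins were higher without input replicate 1.

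Synthetases and chaperones were called higher more often than lower. Aminoacyl-tRNA synthetases, which charge tRNAs, had 14 of 34 higher (41.2%, against 17.0% over all genes) and 1 lower (2.94%, against 19.1%), with a median of 0.33. The 1 lower was Lars2, so the sum of the list was lower in IGF2BP1 RIP (4260 and 4039 CPM) than in input (7526 and 7290 CPM) although its median was higher. The number higher was 4 without input replicate 2. Chaperonin and heat shock genes had 14 of 31 higher (45.2%) and 4 lower (12.9%), with a median of 0.12. These counts fell to 10 higher without input replicate 2 and 2 lower without input replicate 1. The co-chaperone Bag3 was at 110.0 and 117 CPM against 56.7 and 45.2 CPM (1.16) and Stip1 at 338 and 301 CPM against 191 and 235 CPM (0.58). On the lower side, Bag1 was at 127 and 128 CPM against 293 and 285 CPM (-1.18) and the short Hspe1, the mitochondrial co-chaperonin, at -1.07.

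Translation initiation and elongation factors had 10 of 46 higher (21.7%, against 17.0% over all genes) and 13 lower (28.3%, against 19.1%), with a median of -0.04. Eif3d (0.47) and Eif4g3 (0.42) were higher and Eif1, which takes part in start codon selection, was lower, at 148 and 157 CPM against 263 and 251 CPM (-0.76). These counts were 4 and 9 without input replicate 1. Proteasome genes had 9 of 36 higher and 11 lower (median 0.04), and after adjustment for length 13 higher and 5 lower. Psmd3, a subunit of the regulatory particle, was at 101 and 104 CPM against 57.9 and 66.7 CPM (0.72). Both counts were 3 without input replicate 2. Endoplasmic reticulum and translocation genes had 9 of 62 higher (14.5%) and 22 lower (35.5%), with a median of -0.15. Srp68 (0.74) was higher and its partner in the signal recognition particle, Srp14 (-1.14), was lower. Without 1 input library the counts for these genes fell to 4 higher (replicate 2) and 16 lower (replicate 1).

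Of 57 genes for poly(A)-binding and mRNA stability factors, 19 were higher (33.3%, against 17.0% over all genes) and 23 lower (40.4%, against 19.1%), leaving 15 not called (median -0.14). Pabpc1, the main cytoplasmic poly(A)-binding protein, was at 3667 and 3657 CPM in IGF2BP1 RIP against 2813 and 2826 CPM in input (0.38 ± 0.04 (SE), adjusted p = 3.68e-08). Its IgG libraries stood at 2223 and 2007 CPM, below both other groups. The decapping scaffold gene Edc4 was at 139.9 and 142 CPM against 88.4 and 81.5 CPM (0.73). Ybx1, an abundant mRNA-packaging protein, was lower, at 603 and 616 CPM against 1315 and 1213 CPM (-1.05 ± 0.06 (SE), adjusted p = 4.70e-12). Ago3, an Argonaute of the microRNA pathway, was at 32.8 and 31.8 CPM against 106 and 109.5 CPM (-1.74). Without 1 input library the counts fell to 11 higher (replicate 2) and 13 lower (replicate 1).

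Splicing factors and hnRNPs had 19 of 67 higher (28.4%, against 17.0% over all genes) and 16 lower (23.9%, against 19.1%), with a median of 0.03. The poly(C)-binding protein gene Pcbp1 was at 255 and 249 CPM against 165 and 155 CPM (0.66) and the pyrimidine-tract-binding protein gene Ptbp1 at 638 and 610.3 CPM against 398 and 393 CPM (0.66). Short Sm protein genes of the spliceosome were lower, Snrpf at 34.5 and 25.1 CPM against 121 and 116 CPM (-1.99) and Snrpe at -1.73. Without input replicate 1 the counts for this list were 13 and 8. Genes of the m6A machinery had 3 of 18 higher (16.7%) and 5 lower (27.8%), with a median of -0.07, falling to 2 higher without input replicate 1 and 2 lower without IGF2BP1 replicate 1. The reader gene Ythdf1 was higher, at 319 and 311 CPM against 212 and 224 CPM (0.53). Mediator and general transcription factors had 20 of 74 higher (27.0%) and 15 lower (20.3%), with a median of -0.07. Besides Med15, Taf6, a subunit of TFIID, was at 159.8 and 147 CPM against 75.3 and 82.1 CPM (0.96). They had 14 higher and 5 lower without input replicate 1.

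**Figure D5:**
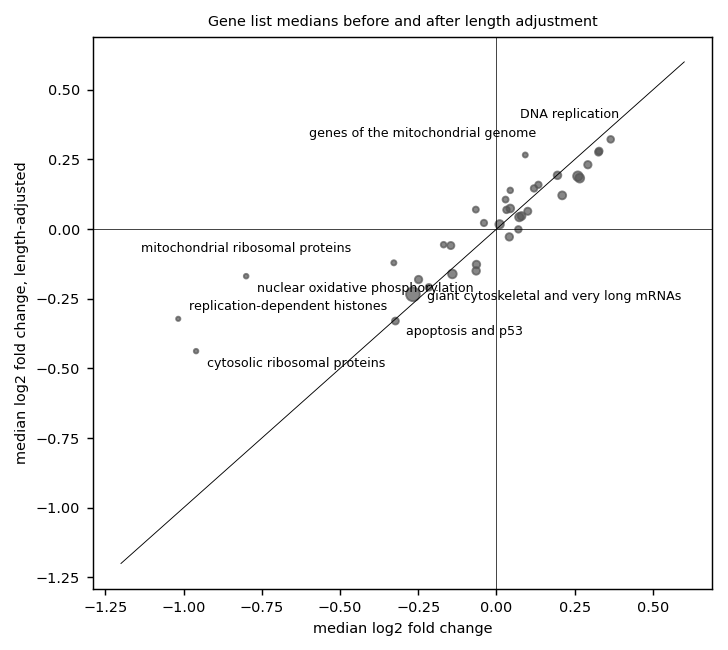
Median log2 fold change of IGF2BP1 RIP over input for each list with at least 10 tested members (horizontal axis) against the median after adjustment for transcript length (vertical axis), with larger points for longer genes and a diagonal where both are equal. The lists of short genes lie well above the diagonal on the left, at -1.02 and -0.32 for histones, and the other lists lie near it.

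The transcript of the antibody's target was higher in the pull-down by a small margin. Igf2bp1 (ENSMUSG00000013415, GRCm38 chr11:95957163-96005940) stood at 455 and 422 CPM in the pull-down and 371 and 357 CPM in input, groups that did not overlap, with a log2 fold change of 0.27 ± 0.07 (SE) and adjusted p = 0.00489. Its IgG libraries stood at 399.9 and 456 CPM, overlapping the IGF2BP1 libraries, and the difference from IgG RIP was 0.05 (adjusted p = 0.787). The call against input was lost without input replicate 1 (0.30, adjusted p = 0.0617), without input replicate 2 (0.25, adjusted p = 0.107) and after adjustment for length (0.18, adjusted p = 0.0582). It was also lost in the model of all 6 libraries (adjusted p = 0.166), on centred FPKM (0.145) and in the test against 1.2-fold (0.444). A library made by pulling down a protein is meant to hold the RNA bound to it, but RNA also came down with a non-specific IgG. The level of the Igf2bp1 mRNA is no measure of how well the pull-down of the protein worked. Igf2bp2 (ENSMUSG00000033581, GRCm38 chr16:22059009-22163299) was at 114 and 118 CPM against 71.6 and 102 CPM (0.41, adjusted p = 0.0152), and at 0.19 (adjusted p = 0.350) without input replicate 1. Igf2bp3 was at 42.0 and 44.5 CPM against 43.6 and 41.7 CPM (0.02, adjusted p = 0.937).

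Published targets of the family, a list known mostly from human cells, had 12 of 36 higher (33.3%, against 17.0% over all genes) and 7 lower (19.4%, against 19.1%), with a median of 0.08, and after adjustment for length 15 were higher and 11 lower. Igf2 (ENSMUSG00000048583, GRCm38 chr7:142650766-142670356), the growth factor mRNA that gave the family its name, was the lowest of the list. It stood at 257 and 251 CPM in the pull-down, 734 and 759.5 CPM in input and 766 and 768 CPM with IgG. Both pull-down libraries were far below the 4 others, with log2 fold changes of -1.56 ± 0.07 (SE) (adjusted p = 4.15e-14) against input and -1.58 (adjusted p = 4.27e-04) against IgG RIP. Lin28b, an RNA-binding regulator of let-7, was at 41.3 and 36.0 CPM against 82.2 and 72.0 CPM (-0.99, adjusted p = 2.46e-05).

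Other published targets were higher or not called. Hmga1, a chromatin architectural protein, was at 361 and 355 CPM against 193 and 176 CPM (0.96, adjusted p = 1.53e-09), and Srf, a transcription factor of actin genes, at 131 and 134 CPM against 80.9 and 80.4 CPM (0.71, adjusted p = 1.82e-05, and 0.111 in the model of all 6 libraries). Actb, the beta-actin mRNA, was at 3325 and 3166 CPM against 3133 and 3067 CPM (0.07 ± 0.04, SE, adjusted p = 0.197), and it was called higher without IGF2BP1 replicate 2 (0.11, adjusted p = 0.00105). Against IgG RIP, where Actb stood at 2181 and 2219 CPM, its fold change was 0.58 (adjusted p = 0.00189). Myc was low, at 13.5 and 9.89 CPM against 14.3 and 7.74 CPM (0.09 ± 0.36 (SE)), and Cd44 was at 169.8 and 198 CPM against 199.8 and 193 CPM (-0.09 ± 0.09 (SE)), and neither was called (adjusted p = 0.867 and 0.429). Hmga2 was at 35.2 and 43.1 CPM against 49.8 and 55.4 CPM (-0.42, adjusted p = 0.0614), and without IGF2BP1 replicate 2 at -0.57 (adjusted p = 0.0220). Without input replicate 2 the list had 7 higher, and of its 25 members with a locus span of their own 6 were higher and 6 lower.

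Germ cell identity was checked on marker genes. Ddx4, a germ cell RNA helicase, and Dazl, a germ cell translation regulator, were abundant in all 6 libraries, and the summed level of 18 markers of undifferentiated spermatogonia was between 2565 and 3128 CPM in the 4 libraries. Spermatid markers summed to at most 6.85 CPM, with Prm1, Prm2 and Tnp2 at 0, and Leydig cell markers to at most 3.74 CPM, with Cyp11a1, Cyp17a1, Hsd3b1 and Lhcgr at 0. Sertoli markers summed to at least 40.5 CPM, mostly Sox9, with Amh and Cldn11 at 0. Markers of other cells were present too. Fibroblast markers summed to between 4498 and 4757 CPM and macrophage and blood markers to between 3361 and 3613 CPM, with Hba-a1 and Hbb-bs at 0. Their part in the results was not tested.

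Genes of self-renewal, which keep spermatogonial stem cells undifferentiated, were more often higher than lower. Of 36 tested, 14 were higher (38.9%, against 17.0% over all genes) and 3 lower (8.33%, against 19.1%), with a median of 0.20. The transcription factor Etv5, induced by GDNF in these cells, was at 252 and 269 CPM in IGF2BP1 RIP against 160.0 and 155 CPM in input (0.73 ± 0.08 (SE), adjusted p = 2.23e-07). Ret, the signalling receptor for GDNF, was at 532 and 512 CPM against 361 and 374 CPM (0.51 ± 0.07 (SE), adjusted p = 4.38e-06). Gfra1, its co-receptor, was at 161 and 175 CPM against 128 and 126 CPM (0.41, adjusted p = 0.00155), and at 0.40 (adjusted p = 0.0599) without input replicate 2. All IGF2BP1 libraries were above all input libraries for Etv5, Ret and Gfra1, as for 34.0% of genes tested. IgG RIP held Etv5 at 177 and 188 CPM, Ret at 405 and 374 CPM and Gfra1 at 76.7 and 119 CPM. The zinc finger gene Glis3 was at 551 and 558 CPM against 397 and 358 CPM (0.55).

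Other markers of these cells did not follow. Zbtb16 (PLZF) was at 509.8 and 526 CPM against 506 and 479.8 CPM (0.07 ± 0.07 (SE), adjusted p = 0.444) and Id4 at 55.5 and 49.8 CPM against 76.0 and 57.1 CPM (-0.33 ± 0.16 (SE), adjusted p = 0.105). Dazl was lower, at 804 and 881 CPM against 1192 and 1135 CPM (-0.47 ± 0.06 (SE), adjusted p = 2.20e-06), and so was the Polycomb gene Bmi1, at -0.65. Ddx4 was at 355 and 368 CPM against 437 and 429.8 CPM (-0.26, adjusted p = 0.00464), and its call was lost without input replicate 1 (-0.25, adjusted p = 0.0873) and without input replicate 2 (-0.27, adjusted p = 0.0684). The list had 6 higher without input replicate 2.

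Spermatogonial differentiation genes had 13 of 21 higher (61.9%, against 17.0% over all genes) and 3 lower (14.3%, against 19.1%), with a median of 0.33. Sohlh2, a transcription factor of differentiating spermatogonia, was at 261 and 286 CPM against 170.0 and 179 CPM (0.65 ± 0.08 (SE), adjusted p = 1.24e-06). The retinoic acid receptor gene Rara was at 78.3 and 82.0 CPM against 50.4 and 39.9 CPM (0.83). Kit, the receptor that marks differentiation, was at 32.4 and 37.1 CPM against 21.8 and 23.2 CPM (0.63, adjusted p = 0.0276). Its call was lost without IGF2BP1 replicate 2 (0.53, adjusted p = 0.116), without input replicate 1 (0.58, adjusted p = 0.156) and without input replicate 2 (0.68, adjusted p = 0.120). It was also lost with DESeq2 (adjusted p = 0.237), in the model of all 6 libraries (0.380), in the test against 1.2-fold (0.0825) and after adjustment for length (0.0530), and on centred FPKM the fold change was -0.41. Stra8, which retinoic acid induces, was lower, at 27.8 and 24.0 CPM against 48.6 and 51.8 CPM (-0.95, adjusted p = 3.84e-04). The counts were 5 higher and 1 lower without input replicate 1.

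Meiosis genes had 8 of 20 lower (40.0%, against 19.1% over all genes) and 3 higher (against 17.0%), with a median of -0.25, and after adjustment for length 5 lower and 2 higher. Tex15 was at 294 and 305 CPM against 740.2 and 751 CPM (-1.31 ± 0.07 (SE), adjusted p = 5.86e-13) and Sycp1, of the synaptonemal complex, at 192 and 249.8 CPM against 534 and 538 CPM (-1.28 ± 0.09 (SE)). In IgG RIP Tex15 stood at 656 and 890.4 CPM, near input, and Sycp1 at 208 and 228 CPM, near IGF2BP1 RIP. Tex14, of germ cell bridges, was higher, at 432 and 438 CPM against 313 and 331 CPM (0.43). Without input replicate 2, 5 were lower and 1 higher. Genes of the piRNA pathway and germ granules, which silence transposons, had 7 of 22 higher (31.8%) and 3 lower (13.6%), with a median of 0.04. The Tudor protein gene Tdrd1 was at 324 and 354 CPM against 182 and 198 CPM (0.83 ± 0.08 (SE), adjusted p = 2.43e-08), Tdrd5 at 0.53, and the helicase gene Mov10l1 at 614 and 654 CPM against 443 and 448 CPM (0.51, a call lost in the model of all 6 libraries, adjusted p = 0.0660). The higher count was 4 without input replicate 2, and without input replicate 1 the list lost its lower calls.

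Signalling lists were mixed. Over all genes tested 17.0% were higher and 19.1% lower. GDNF, FGF, PI3K and MAPK genes had 15 of 49 higher (30.6%) and 8 lower (16.3%), with a median of 0.07. Wnt, Notch and TGF-beta genes had 11 of 48 higher (22.9%) and 10 lower (20.8%), with a median of 0.21. Tcf7, a transcription factor of the Wnt pathway, was at 427 and 422 CPM against 243 and 233 CPM (0.83). Id2, an inhibitor of differentiation, was at 29.2 and 23.3 CPM against 60.4 and 64.9 CPM (-1.25). Immediate early and short-lived mRNAs had 4 of 35 higher and 4 lower (11.4% each), with a median of 0.07. The lower count was 2 without input replicate 2 and 7 after adjustment for length. Egr1 was at 804 and 730.0 CPM against 459 and 454 CPM (0.75), and Nr4a1 at 0.69. Klf6 was at 47.0 and 51.2 CPM against 126 and 104 CPM (-1.22). Apoptosis and p53 genes had 4 of 29 higher (13.8%) and 9 lower (31.0%). They had one of the lower medians among lists that are not short, -0.32 at a median length index of 0.91. Xiap, an inhibitor of caspases, was at 99.3 and 99.6 CPM against 177 and 186 CPM (-0.87), Pmaip1 at 178 and 207 CPM against 342 and 327 CPM (-0.80), and Bax, which permeabilises mitochondria, at -1.03, a call lost in the model of all 6 libraries (adjusted p = 0.0764). Without 1 input library the counts of higher genes in these lists fell to 8 (GDNF, FGF, PI3K and MAPK, replicate 2), 5 (Wnt, Notch and TGF-beta, replicate 1) and 1 (apoptosis, replicate 1), and those of lower genes in the first pair to 5 each (replicate 1).

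In metabolism, cholesterol synthesis had 8 of 23 higher (34.8%, against 17.0% over all genes) and 4 lower (17.4%, against 19.1%), with a median of 0.29. Fdft1, which makes squalene, was at 303 and 309 CPM against 171 and 187 CPM (0.77). Glycolysis had 3 of 21 higher (14.3%) and 1 lower (4.76%), with a median of 0.13 and from 2 to 5 higher with 1 library left out. Beside Pkm, Eno1 was higher, at 335 and 327 CPM against 227 and 258 CPM (0.45). Actin, tubulin and actin-binding genes had 6 of 39 higher (15.4%) and 8 lower (20.5%), near the shares over all genes, with a median of 0.03. With 1 library left out from 4 to 11 were higher. Tmsb10, a relative of Tmsb4x, had a log2 fold change of -1.89 (adjusted p = 5.53e-14), and Flna, a long actin crosslinker, was at 268 and 260.1 CPM against 207 and 165 CPM (0.51). The cholesterol counts were 4 and 2 without input replicate 2.

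Zinc fingers and solute carriers had shares below the 17.0% and 19.1% of all genes, while Tmem genes had 27.6% lower. Zfp zinc finger genes had 27 of 279 higher and 48 lower (median -0.06), with Zfp820 at 4.98 and 7.07 CPM against 26.1 and 24.4 CPM (-2.06). Solute carriers had 17 of 162 higher and 25 lower (median 0.04), and Tmem genes 9 of 127 higher and 35 lower (median -0.22), of which Tmem38b was described above. Without 1 input library these counts fell to 12 and 17 (zinc fingers, replicate 1), 7 and 8 (solute carriers, replicate 2) and 4 and 19 (Tmem, replicate 1).

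Markers of other cells moved in both directions. Fibroblast and matrix genes had 6 of 32 higher (18.75%, against 17.0% over all genes) and 9 lower (28.1%, against 19.1%), with a median of 0.01. Prrx1, a mesenchymal transcription factor, was at 32.0 and 31.4 CPM against 69.7 and 79.2 CPM (-1.23). The proteoglycan gene Dcn was at 145 and 159 CPM against 232 and 211 CPM (-0.54) and the short S100a6 at -1.55. Without input replicate 1 the list had 6 lower and lost its higher calls. Macrophage, blood and endothelial markers had 2 of 15 higher (13.3%) and 4 lower (26.7%), with a median of -0.17, and 1 lower without input replicate 1. Cd68, a macrophage lysosomal protein, was at 339 and 333 CPM against 165 and 158 CPM (1.06 ± 0.08 (SE), adjusted p = 3.11e-10), while Lyz2, the macrophage lysozyme, was at 2846 and 2746 CPM against 3149 and 3139 CPM (-0.17, adjusted p = 0.00159). The call of Lyz2 was lost without input replicate 1 (-0.16, adjusted p = 0.0998) and without input replicate 2 (-0.17, adjusted p = 0.0588). Sertoli and Leydig markers had 2 of 4 higher, calls that were lost with any 1 library left out, and neither of 2 spermatid genes passed the test. In bulk RNA, fewer cells of a type and less RNA per cell cannot be told apart, and in a pull-down a share can also differ by what was bound.

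Calls were spread unevenly over the chromosomes, as a description with no test. Chromosome 13 had the highest share of lower calls, 145 of 453 genes (32.0%), and a median of -0.21. It holds 54 of the tested histone genes, and without them 25.1% of its genes were lower, against 19.1% over all genes. The X chromosome had 104 of 416 lower and 47 higher (median -0.18, and -0.17 after adjustment for length). Chromosome 11 had the highest share of higher calls among the nuclear chromosomes, 214 of 943 (22.7%), and chromosome 7 the highest median, 0.13.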

How the data were processed

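RIP-seq counts of 6 libraries of cultured mouse germ stem cells were analysed. Reads were checked with FastQC and trimmed with cutadapt 1.9.3, and mm39 is named as the build, per the submitters' processing notes. An aligner and a counter were not given in the sources used here. The deposited coordinates overlapped the GRCm38 position of 99.9% of 20874 matched genes and are printed as GRCm38. The authors deposited an estimated count and an FPKM value per gene and library, per the file headers. Of the deposited counts of a library, 92.8% to 94.4% were whole multiples of 1 step, within 0.01. Counts were divided by that step and rounded to whole fragments. No column of another series was present.

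The 4 IGF2BP1 and input libraries were fitted with edgeR 4.0.16 (TMM, filterByExpr, glmQLFit, glmQLFTest) in R 4.3.3, with adjustment by Benjamini-Hochberg over all genes tested and a threshold of 0.05. IgG RIP was compared in a second model of all 6 libraries. The alternatives used DESeq2 1.42.0, limma 3.58.1 on log2(FPKM + 0.1), other filters, left-out libraries, the replicate number as a block, and offsets for 20 length classes, the last added after seeing the data. Replicate numbers are not said to pair the libraries. The correlation of same-numbered deviations across genes was 0.0071. It cannot decide the question, because with 2 libraries a group the second pair mirrors the first. The fit was tested on simulated data. The members and lists were chosen with earlier results of these data known. Named genes were the 12 furthest each way and the 6 most abundant each way (at least 1.5-fold) among genes of at least 20 CPM with an unshared locus span and no overlap between groups, the IGF2BP family, up to 4 and 2 called members of each list, of which some are named, and fixed targets and markers. Some of these genes and sequences are not reported here. The precision rests on 1639251 to 2836942 fragments a library and on 2 libraries a group. Start windows were matched to RefSeq promoters by NCBI gene ID.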

Additional observations from a re-analysis of the deposited data

How the results depend on the processing

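The counts of genes called higher and lower, and of those at least 1.5-fold apart, moved by over 1.5 times in these settings. DESeq2 gave 858 and 1118, and 461 and 868 at 1.5-fold. A model of all 6 libraries, which shares the spread of the IgG libraries, gave 266 and 453, and 179 and 397. FPKM as deposited gave 6684 and 188, and 6146 and 129, with all genes shifted by 0.81, and after centring 597 and 865, and 430 and 737. A test against 1.2-fold gave 1001 and 1420. With 1 library left out the counts ranged from 905 to 1874 higher, from 1102 to 1966 lower, and from 570 to 946 and 862 to 1345 at 1.5-fold. With the replicate block they were 2046 and 2269, and 871 and 1454, and the block moved no count by over 1.5 times. The other settings stayed within 1.5 times. The cause of these moves was not tested beyond the construction of each setting.

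On FPKM as deposited these fold changes turned positive: Cd44 0.85, Kif5b 0.24, Dazl 0.36, Suz12 0.21, Dcn 0.30, Id4 0.52, Ddx4 0.56, Pmaip1 0.0260, Dst 0.53, Ncl 0.0693, Bmi1 0.23, Herc2 0.18, Eif1 0.0595, Hmga2 0.36, Mdn1 0.0691 and Lyz2 0.69. After centring, Cd44 was 0.0383, Kit -0.41 and Myc -0.0054. Cd44 ranged from -0.20 to 0.0190 with 1 library left out, Myc from -0.28 to 0.60 and Igf2bp3 from -0.0100 to 0.0708. After adjustment for length Myc was -0.0119 and Igf2bp3 -0.0718, and with a stricter filter Igf2bp3 was -0.0034. Of the 129 genes named by rule, calls were lost by 36 in the model of all 6 libraries, 21 on centred FPKM, 18 on FPKM as deposited, 7 in the test against 1.2-fold, 6 with DESeq2, and 4 each with no filter on low counts and after adjustment for length. The 36 include Psmd3, Dcn, Id2, Srp68, Ddx4, Zfp251, Gfra1, Bmi1, Arhgap1, Eif4g3, Inpp5b, Stra8, Kif22, Flna, Pkm, Fam160b1, Igf2bp2, Ndufa3, Edc4, Ndufv1, Ttk, Ythdf1, Eno1, Lin28b, mt-Cytb, Lyz2, Gm10800 and Snrpe, beside those given with their p. Medians changed sign for 13 of 38 lists on FPKM as deposited, for 4 after adjustment for length and for at most 3 in the other settings. Depth limits genes of few fragments, and 2 libraries a group limit every p.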
